A study of Mus musculus with 9 samples.

Results

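Twist1, Prrx1, Prrx2, Foxc1, Foxc2, Tbx1, Alx1, Alx4 and Pdgfra are genes of the mesenchyme that surrounds the embryonic brain. They were taken by symbol as rows of a table of read counts for 48587 genes, in which all 9 were found. The first 8 encode transcription factors and Pdgfra encodes the receptor tyrosine kinase PDGFRα. The libraries were made from hindbrains dissected from untreated C57BL/6N mouse embryos on embryonic day 9.5, with 3 libraries of each of 3 Zfp423 genotypes. Zfp423 encodes a zinc finger transcription factor. Littermates with full-length protein served as wild type (wt), the d9-20 allele lacks exon 4 and with it zinc fingers 9 to 20, and the d28-30 allele lacks exons 6 and 7 and with them zinc fingers 28 to 30, per the labels. The labels name neither the line from which the wt littermates were taken nor how many embryos went into a library, so p-values measure the spread between these samples only.

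Cranial mesenchyme is a loose tissue between the brain and the surface ectoderm. It is derived from neural crest cells, which leave the dorsal neural tube, and from head mesoderm. It forms skull, meninges and connective tissue. Twist1, a basic helix-loop-helix factor that binds DNA as a dimer with E proteins, acts in both sources. The homeodomain factors Prrx1 and Prrx2 and the aristaless-like factors Alx1 and Alx4 act in the mesenchyme that builds the head skeleton. The forkhead factors Foxc1 and Foxc2 act in mesoderm and in the mesenchyme that gives rise to meninges and skull. Tbx1, a T-box factor, acts in pharyngeal mesoderm, pharyngeal endoderm and the otic vesicle. PDGFRα marks mesenchymal cells and answers to the ligands PDGF-A and PDGF-C. A hindbrain dissected at this stage holds mainly neuroepithelium, and which cells gave the reads of these 9 genes was not tested. A different number of mesenchymal cells cannot be told apart from a different amount of RNA per cell.

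Total counts per library ranged from 16903382 to 24216412, and a count of 3, taken as a floor, was 0.124 to 0.177 CPM (counts scaled to a common library total). Replicates 1 and 2 carry these numbers in their titles, and replicate 3 is the unnumbered one of each genotype. The d28-30 replicate 2 library stood apart, with a chi-square per degree of freedom of 27.3 to 64.3 when set against each of the others, and pairs without it reached at most 18.6. Summed CPM of 4 Y-linked genes ranged from 0.0506 to 205, so the libraries differed in sex. The sum was 63.7 to 205 CPM in wt, while replicate 1 had 0.0506 CPM in d9-20 and 0.0589 CPM in d28-30. Y-linked levels were therefore not balanced over the genotypes. Of 12 genes of the hindbrain neuroepithelium all 12 were tested, and their summed level was 1012 to 1300 CPM. Zfp423 was at 101 to 118 CPM in the wt libraries, 155 to 194 CPM in d9-20 and 159 to 183 CPM in d28-30. These are reads over the whole gene and do not show the deleted exons.

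All 9 genes passed the filter on low counts and were tested among 15695 genes. Together they held 303 to 326 CPM in the wt libraries, 323 to 362 CPM in d9-20 and 325 to 367 CPM in d28-30, or 0.0307% to 0.0364% of all counts. By exon length (union of annotated exons in GENCODE M21, GRCm38), Twist1 was the most abundant in wt, with 26.7 ± 1.96 CPM per kb (SD, n = 3). Prrx2 followed with 17.3 ± 1.75 CPM per kb. Then came Alx4 with 7.86 ± 0.768 and Pdgfra with 7.28 ± 0.674 CPM per kb, whose wt ranges overlapped. Tbx1 (5.80 ± 0.473), Foxc2 (4.68 ± 0.527), Foxc1 (4.50 ± 0.426) and Prrx1 (4.18 ± 0.571 CPM per kb) made up the next tier, in which each range overlapped that of the next gene. Alx1 came last with 0.277 ± 0.0301 CPM per kb and 23 to 59 counts per library in all 9 libraries, so that counting error weighs most on this gene. Twist1, Prrx2 and Alx1 kept the first, the second and the last place in both mutants, while Pdgfra stood above Alx4 in both mutants (8.57 and 7.27 CPM per kb in d9-20, 8.59 and 8.49 in d28-30), in d9-20 Tbx1 stood above Alx4 and in d28-30 Foxc1 stood above Foxc2, each with overlapping ranges in that genotype. The annotation behind the deposited counts is not known, so the lengths are those of this release.

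**Figure D1:**
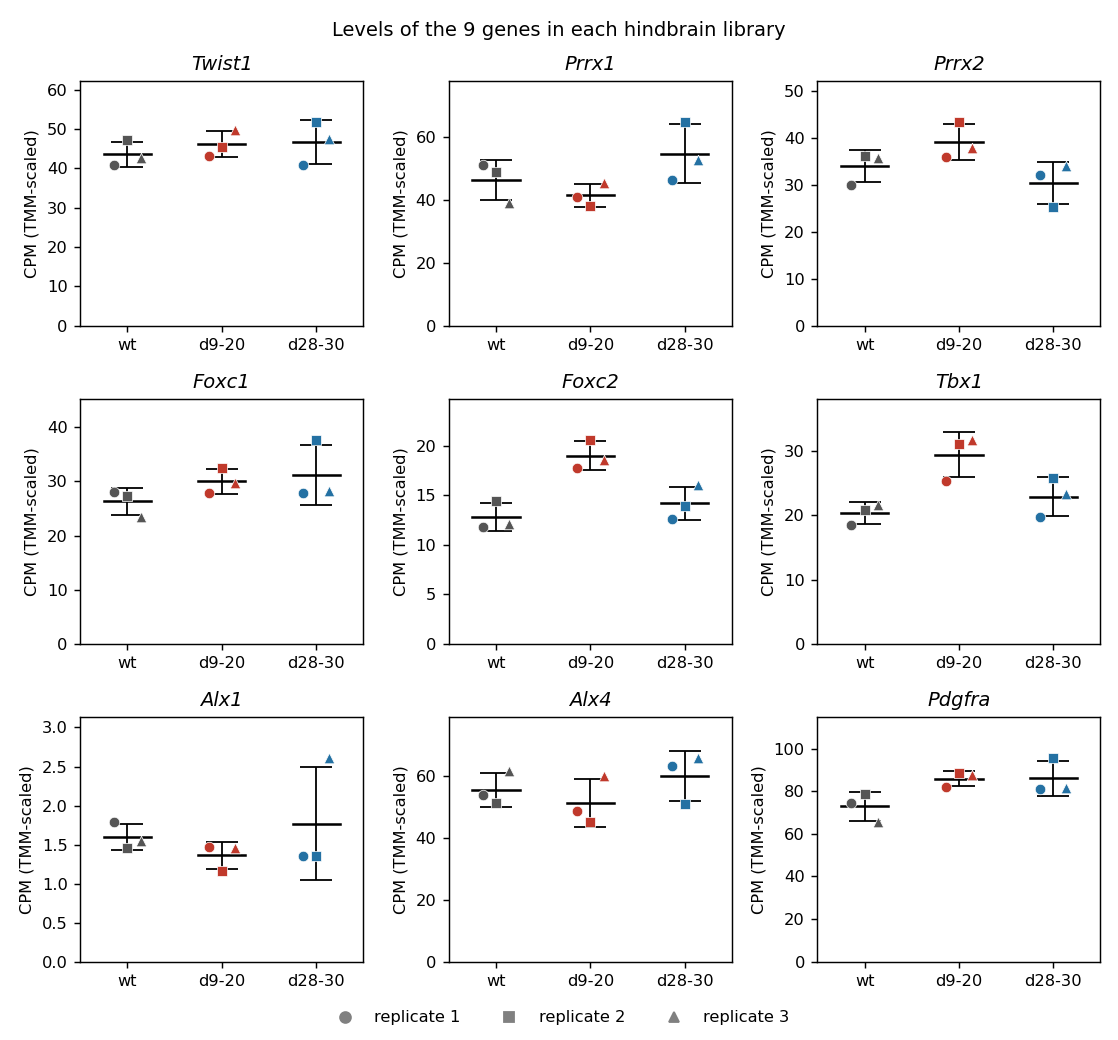
Each panel plots 1 gene as CPM (vertical axis, from 0) in the 3 libraries of each genotype, with the mean as a line and the SD as bars, and the marker shape gives the replicate. In d9-20 the 3 points of Foxc2, Tbx1 and Pdgfra lie above the 3 wt points, and in d28-30 those of Pdgfra do.

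With edgeR's quasi-likelihood test and p-values adjusted over all 15695 genes, 0 of the 9 genes passed 0.05 in d9-20 against wt, where 0.166% of all genes tested were called. The unadjusted p was under 0.05 for 3 of the 9, beside 5.96% of all genes. DESeq2 called 2, Foxc2 and Tbx1, among 121 of all genes, and limma-voom called 0 among 24. With the replicate number as a block, 1 of the 9 passed, Tbx1, and 55 of all genes in place of 26. In d28-30 against wt 0 of 9 passed, beside 0.159% of all genes, with 1 unadjusted p under 0.05 (8.08% of all genes) and 0 calls by DESeq2 or limma-voom. The 2 comparisons share the wt libraries. In d9-20 against d28-30 0 of 9 passed, beside 0% of all genes, with 4 unadjusted p under 0.05 (9.58% of all genes) and 0 calls by DESeq2 or limma-voom. The median log2 fold change over the 9 genes was 0.19 for d9-20 minus wt, where 6 of the 9 and 51.2% of all genes were above 0. It was 0.16 for d28-30 minus wt, with 8 of the 9 and 50.3% of all genes above 0. For d9-20 minus d28-30 it was -0.02, with 3 of the 9 and 48.4% of all genes above 0. Over all genes tested these medians were 0.00, 0.00 and -0.01. The 3 d9-20 libraries lay clear of the 3 wt libraries in 3 of 9 genes, all higher, beside 11.2% of all genes in either direction and 5.99% higher. The d28-30 libraries lay clear of wt in 1 of 9, which was higher, beside 12.8% of all genes and 6.63% higher. The mutants lay clear of each other in 3 of 9, 2 of them higher in d9-20, beside 16.8% of all genes and 8.64% higher in d9-20.

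**Figure D2:**
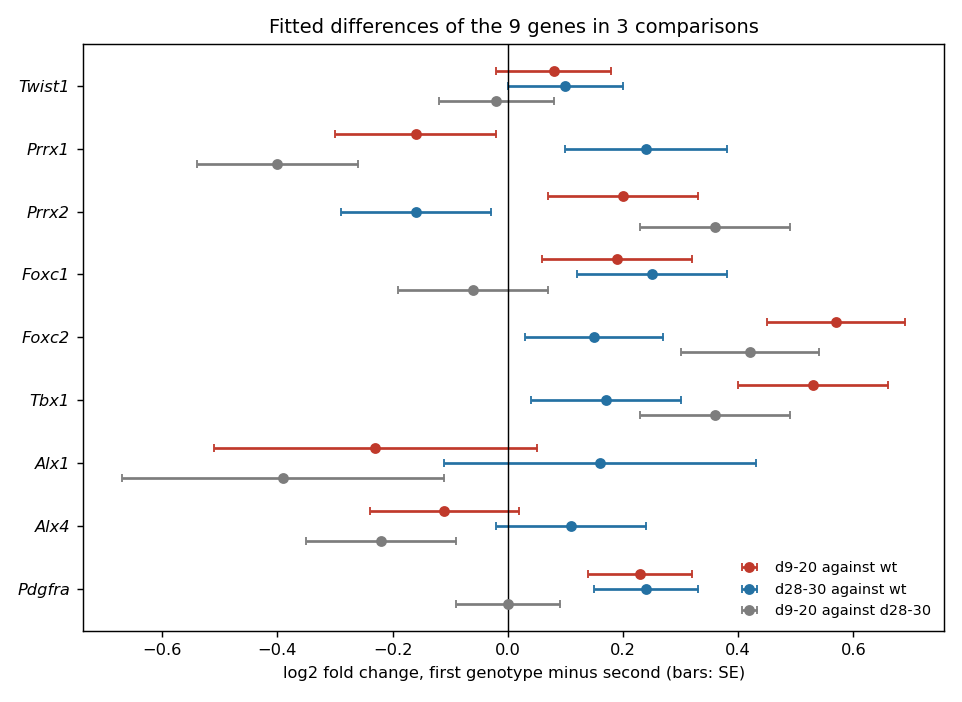
Fitted log2 fold changes (horizontal axis, first genotype minus second) with their standard errors as bars are shown for the 9 genes in the 3 comparisons. Foxc2 and Tbx1 have the largest values of d9-20 against wt, 0.57 and 0.53, Pdgfra has 0.23 and 0.24 in the mutants against wt, and Prrx1 and Prrx2 lie on opposite sides of 0 in each comparison.

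Of the forkhead genes, Foxc2 was higher in the d9-20 than in the wt libraries, while for Foxc1 the genotypes overlapped. Foxc2, whose human counterpart is mutated in lymphedema-distichiasis, spans 121116171 to 121118895 on chromosome 8 (GRCm38, plus strand, 1 annotated transcript). It lies 33.2 Mb from Zfp423 on the same chromosome. Foxc2 was at 11.8, 14.4 and 12.1 CPM in wt replicates 1 to 3, at 17.8, 20.6 and 18.6 CPM in d9-20 and at 12.6, 13.9 and 16.0 CPM in d28-30. All d9-20 libraries exceeded all libraries of the other genotypes, while d28-30 and wt overlapped. The log2 fold change of d9-20 against wt was 0.57 ± 0.12 (SE; 1.49-fold, unadjusted p = 0.000639), the 83rd smallest p of all genes. Its adjusted p was 0.121 with edgeR's quasi-likelihood test. It was 0.00704 with DESeq2, 0.0306 without the filter on low counts and 0.0614 with the replicate block, and over all 17 other settings it ranged from 0.00704 to 0.654. Against d28-30 the difference was 0.42 ± 0.12 (unadjusted p = 0.00520, adjusted p = 0.392 by edgeR), and d28-30 differed from wt by 0.15 ± 0.12 (adjusted p = 0.660), from 0.06 without d28-30 replicate 3 to 0.25 without wt replicate 2.

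Foxc1, the paralog on chromosome 13 (31806633 to 31812476, plus strand), was at 28.1, 27.3 and 23.5 CPM in wt, at 27.8, 32.5 and 29.8 CPM in d9-20 and at 27.8, 37.7 and 28.2 CPM in d28-30. The highest value was that of d28-30 replicate 2. The log2 fold changes against wt were 0.19 ± 0.13 in d9-20 (unadjusted p = 0.173, edgeR) and 0.25 ± 0.13 in d28-30 (adjusted p = 0.610 by edgeR), and the latter was 0.09 without d28-30 replicate 2. The ratio of Foxc1 to Foxc2 in CPM was 2.39, 1.90 and 1.94 in wt and 1.56, 1.58 and 1.61 in d9-20. It was 2.21, 2.72 and 1.76 in d28-30. Each d9-20 ratio was below every ratio of wt and d28-30; the ratios were not tested.

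Tbx1, like Foxc2, had its higher values in d9-20. It is the T-box gene within the region deleted in human 22q11.2 deletion syndrome, and in the mouse it spans 18580979 to 18590671 on chromosome 16 (minus strand). In wt it was at 18.5, 20.9 and 21.7 CPM, in d9-20 at 25.4, 31.2 and 31.8 CPM and in d28-30 at 19.7, 25.8 and 23.3 CPM. All d9-20 libraries exceeded the wt libraries, and d9-20 replicate 1 lay below d28-30 replicate 2. The log2 fold change of d9-20 against wt was 0.53 ± 0.13 (1.45-fold, unadjusted p = 0.00140), and its adjusted p by edgeR's quasi-likelihood test was 0.194. The labels state no pairing between libraries of the same replicate number. With that number as a block over all 9 libraries, Tbx1 passed by edgeR (adjusted p = 0.0359, log2 fold change 0.53). DESeq2 gave 0.0178 and the fit without a filter 0.0324, and over all 17 settings the range was 0.0178 to 0.799. The difference between d9-20 and d28-30 was 0.36 ± 0.13 (unadjusted p = 0.0149, adjusted p = 0.466 by edgeR), and d28-30 exceeded wt by 0.17 ± 0.13 (adjusted p = 0.638), from 0.08 without d28-30 replicate 2 to 0.26 without d28-30 replicate 1.

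Leaving out 1 library left the adjusted p above 0.05 for both genes in d9-20 against wt. It was 0.0817 to 0.654 for Foxc2 and 0.0798 to 0.799 for Tbx1, lowest without d28-30 replicate 2 and highest without wt replicate 1. The log2 fold changes kept their sign, between 0.51 and 0.67 for Foxc2 and between 0.46 and 0.62 for Tbx1.

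**Figure D3:**
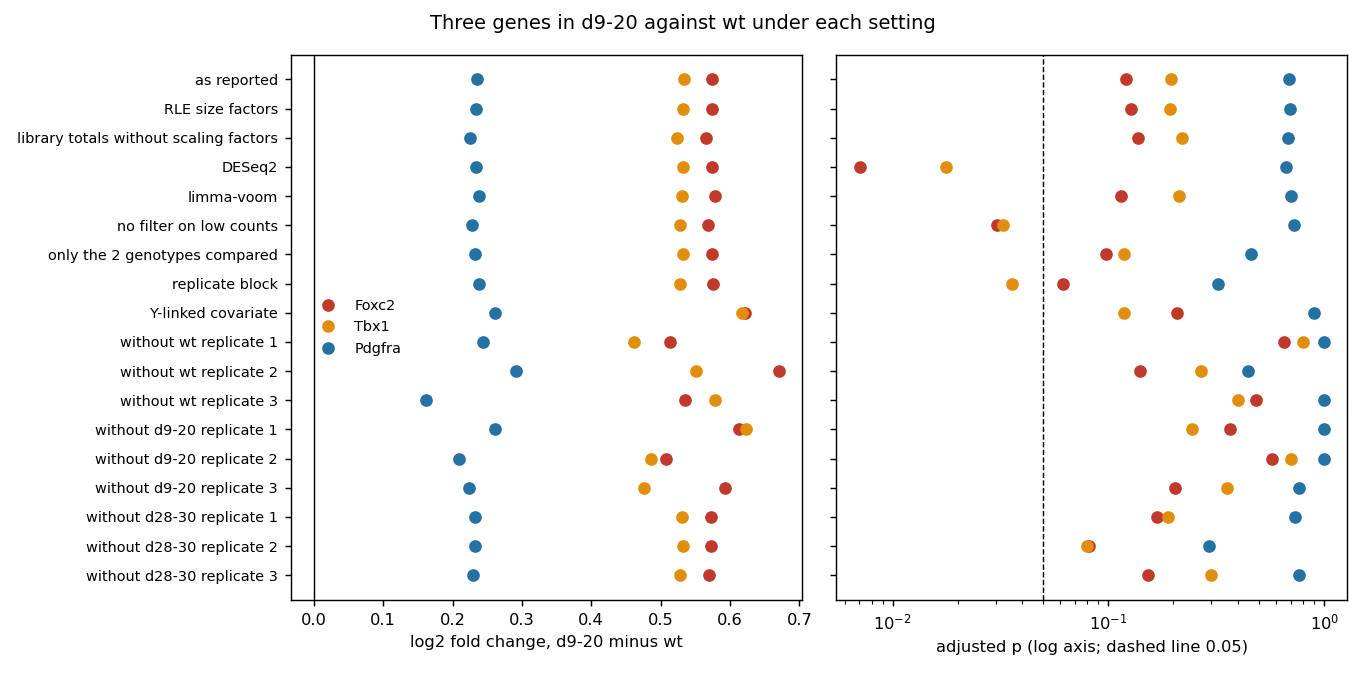
The left panel gives the log2 fold change of d9-20 minus wt and the right panel its adjusted p on a log axis for Foxc2, Tbx1 and Pdgfra under each of 18 settings, with the threshold of 0.05 dashed. The fold changes stay above 0 in every setting shown, and 5 of the plotted p-values lie below the threshold, 2 for Foxc2 and 3 for Tbx1.

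Pdgfra was higher in the libraries of both mutants. The gene spans 75152292 to 75198215 on chromosome 5 (plus strand). It was at 74.6, 78.7 and 65.5 CPM in wt, at 81.9, 88.3 and 87.4 CPM in d9-20 and at 81.0, 95.6 and 81.7 CPM in d28-30. Every mutant library exceeded every wt library, and the mutants overlapped each other. The log2 fold change was 0.23 ± 0.09 in d9-20 (1.18-fold, unadjusted p = 0.0246, adjusted p = 0.690 by edgeR) and 0.24 ± 0.09 in d28-30 (1.18-fold, unadjusted p = 0.0225, adjusted p = 0.584). Without d28-30 replicate 2 the d28-30 value was 0.16. Without wt replicate 3, the library with the lowest Pdgfra, the values were 0.161 in d9-20 and 0.162 in d28-30. Neither call was made in any of 17 settings. Of the 5 other genes of PDGF ligands and receptors (Pdgfa, Pdgfb, Pdgfc, Pdgfd and Pdgfrb), 0 passed in any of the 3 comparisons, and 1 had an unadjusted p under 0.05 in d9-20 against wt, Pdgfa. The summed level of the 5 was 142 to 152 CPM in d9-20, above the 128 to 133 CPM in wt, and 123 to 139 CPM in d28-30. Pdgfa encodes PDGF-A and was at 15.9, 22.4 and 16.1 CPM in wt and at 25, 28.6 and 23.3 CPM in d9-20 (log2 fold change 0.50 ± 0.14, adjusted p = 0.372 by edgeR). In d28-30 it was at 24.2, 20.6 and 21.1 CPM (0.28 ± 0.14, adjusted p = 0.610). Pdgfb, which encodes the ligand PDGF-B, had log2 fold changes of 0.21 ± 0.12 and -0.09 ± 0.13 against wt. It was 0.29 ± 0.13 higher in d9-20 than in d28-30 (unadjusted p = 0.0386, adjusted p = 0.514 by edgeR).

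The paired-related genes Prrx1 and Prrx2 had fold changes of opposite sign in each comparison. Prrx1 (chromosome 1, 163245119 to 163313710, minus strand) was at 51.0, 48.8 and 39.1 CPM in wt, at 41.0, 37.9 and 45.2 CPM in d9-20 and at 46.3, 64.8 and 52.7 CPM in d28-30. The d28-30 libraries lay above the d9-20 libraries, and both overlapped wt. Prrx2 (chromosome 2, 30834972 to 30881251, plus strand) was at 30.0, 36.2 and 35.7 CPM in wt, at 35.9, 43.4 and 37.9 CPM in d9-20 and at 32.0, 25.3 and 33.9 CPM in d28-30. Here the d28-30 libraries lay below the d9-20 libraries, and both overlapped wt. Against wt the log2 fold changes of Prrx1 were -0.16 ± 0.14 in d9-20 (unadjusted p = 0.259 by edgeR) and 0.24 ± 0.14 in d28-30 (0.102). Those of Prrx2 were 0.20 ± 0.13 in d9-20 (unadjusted p = 0.141 by edgeR) and -0.16 ± 0.13 in d28-30 (0.228). With the replicate block the Prrx2 value in d9-20 was 0.20 (unadjusted p = 0.130 by edgeR). Between the mutants (d9-20 minus d28-30) the log2 difference was -0.40 ± 0.14 for Prrx1 (unadjusted p = 0.0128, adjusted p = 0.459 by edgeR) and 0.36 ± 0.13 for Prrx2 (unadjusted p = 0.0155, adjusted p = 0.467). Without d28-30 replicate 2, which held the highest Prrx1 and the lowest Prrx2 value, these became -0.26 and 0.24, and neither passed in any of 17 settings. The ratio of Prrx1 to Prrx2 in CPM was 1.70, 1.35 and 1.09 in wt, 1.14, 0.874 and 1.19 in d9-20 and 1.45, 2.56 and 1.55 in d28-30.

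The aristaless-like genes Alx1 and Alx4 had overlapping ranges in all genotypes. Without a block, edgeR gave unadjusted p of 0.437 (Alx1) and 0.402 (Alx4) in d9-20 against wt. With edgeR and the replicate block their log2 fold changes (d9-20 minus wt) were -0.24 (Alx1, unadjusted p = 0.381) and -0.12 (Alx4, unadjusted p = 0.149). Neither passed in edgeR's adjusted test. Alx4 (chromosome 2, 93642384 to 93681339, plus strand) was at 53.7, 51.2 and 61.6 CPM in wt, at 48.8, 45.1 and 60.0 CPM in d9-20 and at 63.3, 50.8 and 65.8 CPM in d28-30. Its log2 fold changes against wt were -0.11 ± 0.13 in d9-20 and 0.11 ± 0.13 in d28-30. Leaving out 1 library moved them between -0.24 (without d9-20 replicate 3) and -0.03 (without d9-20 replicate 2), and between 0.04 (without d28-30 replicate 3) and 0.22 (without d28-30 replicate 2). Alx1 (chromosome 10, 102998707 to 103030215, minus strand) had 39, 29 and 30 counts in wt, 29, 23 and 31 in d9-20 and 23, 32 and 59 in d28-30. The count of 59, in d28-30 replicate 3, decided the direction of its value in that mutant, which was 0.16 ± 0.27 with it and -0.24 without it. The d9-20 value was -0.23 ± 0.28.

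Twist1 (chromosome 12, 33957671 to 33959829, plus strand) had the smallest log2 fold changes against wt of the 8 transcription factor genes in both mutants. It was at 40.9, 47.1 and 42.6 CPM in wt, at 43.2, 45.5 and 49.6 CPM in d9-20 and at 40.7, 51.8 and 47.5 CPM in d28-30. The genotypes overlapped, with log2 fold changes of 0.08 ± 0.10 and 0.10 ± 0.10 against wt, and 0.03 to 0.14 and 0.02 to 0.18 when 1 library was left out. Of 11 further genes around it (its relative Twist2, the E protein genes Tcf3, Tcf4 and Tcf12, the inhibitors Id1 to Id3, and Snai1, Snai2, Zeb1 and Zeb2, factors of epithelial-mesenchymal transition), 0 passed in any comparison with edgeR. Unadjusted p was under 0.05 for 1 of them in the comparison of d28-30 with wt, for 1 in that of the mutants and for 0 in that of d9-20 with wt. The first was Id1, a dominant-negative partner of bHLH factors, with a log2 fold change of -0.44 ± 0.13 in d28-30 (adjusted p = 0.399 by edgeR).

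Promoter sequence from RefSeq (GRCm38.p6, 250 bases before to 50 after a start) was matched for 6 of the 9 genes: Twist1, Prrx1, Prrx2, Foxc1, Tbx1 and Pdgfra, with a second start for Tbx1. Foxc2, Alx1 and Alx4 have no entry. The promoters of the genes whose libraries separated are shown 5′ to 3′ on the gene's strand, for Tbx1 at the start that matches the end of the gene in GENCODE M21. Capitals mark E-boxes (CANNTG, the motif bound by bHLH factors such as Twist1) and the homeodomain core TAAT on either strand (ATTA). The promoters lie at chr1:163313601-163313900 (Prrx1, minus strand), chr2:30845117-30845416 (Prrx2, plus strand), chr5:75152001-75152300 (Pdgfra, plus strand) and chr16:18590622-18590921 (Tbx1, minus strand).
Prrx1: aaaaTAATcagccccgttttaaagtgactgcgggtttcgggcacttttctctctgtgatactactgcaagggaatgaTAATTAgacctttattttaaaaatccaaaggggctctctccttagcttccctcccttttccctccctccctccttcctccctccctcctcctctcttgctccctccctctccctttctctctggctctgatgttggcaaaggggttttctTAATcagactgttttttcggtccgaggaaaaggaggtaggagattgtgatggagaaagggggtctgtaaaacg
Prrx2: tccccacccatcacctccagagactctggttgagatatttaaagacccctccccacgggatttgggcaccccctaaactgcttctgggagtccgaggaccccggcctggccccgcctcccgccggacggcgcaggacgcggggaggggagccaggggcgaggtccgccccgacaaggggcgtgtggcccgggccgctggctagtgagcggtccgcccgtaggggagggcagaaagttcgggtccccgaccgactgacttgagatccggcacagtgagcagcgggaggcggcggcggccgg
Pdgfra: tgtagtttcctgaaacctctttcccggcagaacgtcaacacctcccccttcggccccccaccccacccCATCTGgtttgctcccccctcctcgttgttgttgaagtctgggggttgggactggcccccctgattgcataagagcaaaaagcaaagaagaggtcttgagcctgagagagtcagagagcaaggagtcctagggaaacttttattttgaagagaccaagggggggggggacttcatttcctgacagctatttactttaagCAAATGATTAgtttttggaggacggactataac
Tbx1: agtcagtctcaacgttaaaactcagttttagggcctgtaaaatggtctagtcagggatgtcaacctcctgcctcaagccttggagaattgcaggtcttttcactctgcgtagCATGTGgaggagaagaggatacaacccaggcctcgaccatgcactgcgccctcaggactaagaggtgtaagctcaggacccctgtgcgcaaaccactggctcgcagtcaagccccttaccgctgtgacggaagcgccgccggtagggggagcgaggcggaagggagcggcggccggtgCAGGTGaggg
The Prrx1 window held 4 matches of the homeodomain core and 47.7% G+C, and the Prrx2 window held 0 and 70.3% G+C, where the median of all 32851 promoters was 52.7%. In GENCODE M21 the Prrx1 window covers the end of the gene (163313710, minus strand). The Prrx2 window lies inside the gene, which starts at 30834972, so these 2 windows are not at like positions. Pdgfra held 2 E-boxes and 1 homeodomain core, which adjoins the second E-box. Tbx1 held 2 E-boxes at this start, and none of the 4 motifs at its other start or in the Twist1 and Foxc1 windows. Of all promoters, 72.3% held an E-box and 58.0% the homeodomain core. A forkhead core (TGTTTA) and a T-box core (TCACACC), searched on both strands and held by 13.4% and 3.98% of all promoters, matched in 0 of the 7 windows. These are matches of letters in windows of 300 bases and not shown to be binding sites.

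The annotated transcripts of the 9 genes shared little sequence with those of other genes. No stretch of 75 nt, the read length, was shared between any 2 of the 9 genes in the annotated transcripts, so Prrx1 and Prrx2, Foxc1 and Foxc2, and Alx1 and Alx4 do not exchange exact reads. Pdgfra shared 4.05% of its stretches with the gene models Gm42802 and Gm42803 on the opposite strand, which had 0 or 1 counts per library, and Alx1 shared 2.84% with Gm17028, which had 0. The Alx4 locus overlaps Ext2 on the opposite strand over 20312 nt, without a shared stretch in the transcripts.

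Across the 9 libraries no pattern was common to all 9 genes. Over their 36 pairs, Pearson's r of log2 CPM had a median of 0.07, with 18 pairs above 0. Values of 1 library share its depth and its dissection, and the r values are given as descriptions. Every pair among Twist1, Foxc1, Foxc2, Tbx1 and Pdgfra had r above 0 for deviations from the genotype means (0.19 to 0.92). Alx4 had r below 0 with each of these genes (-0.75 to -0.07). This set was picked after seeing the values. Foxc1 and Pdgfra followed each other most closely, with r = 0.92 and Spearman's rho = 0.83 over 9 libraries. The value was 0.92 for the deviations from the genotype means and 0.76 over 7 libraries without the 2 farthest in Foxc1 (wt replicate 3 and d28-30 replicate 2). Prrx1 and Prrx2 ran opposite, with r = -0.85 and rho = -0.73. Here the value was -0.72 for deviations from genotype means and -0.49 without d9-20 replicate 2 and d28-30 replicate 2. For Foxc2 and Tbx1 the d9-20 libraries formed a cluster of their own, so no pooled value is given, and r of the deviations from genotype means was 0.51.

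**Figure D4:**
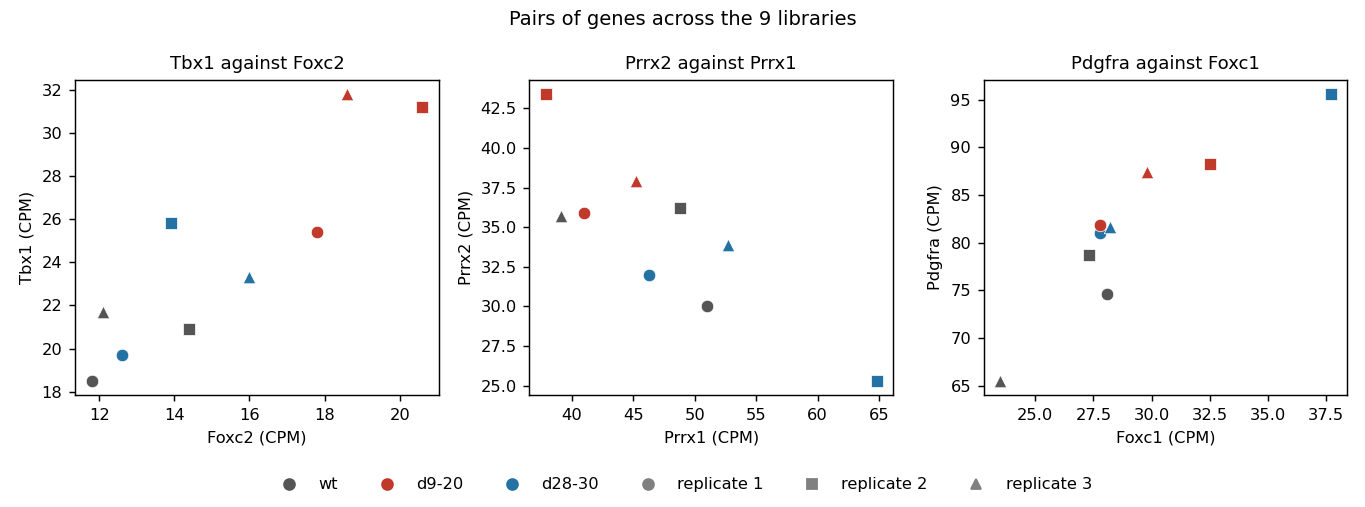
Each panel plots 1 gene against another in CPM for the 9 libraries, with colour for the genotype and shape for the replicate. The d9-20 libraries have the highest Foxc2 values and Tbx1 values of 25.4 to 31.8, the d28-30 replicate 2 library is the point with Prrx1 at 64.8 and Prrx2 at 25.3, and Pdgfra and Foxc1 share their lowest library, wt replicate 3.

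Among 13898 other genes with a mean of at least 1 CPM, those most like the mean standardized pattern of the 9 genes were Cdh6, a cadherin gene (r = 0.92 over 9 libraries, rho = 0.98), Il17d, a cytokine gene (r = 0.91, rho = 0.88), Foxd1, a forkhead gene of mesenchyme (r = 0.90, rho = 0.77), Fhl2, a LIM-domain gene (r = 0.90, rho = 0.93), and the gene model Gm29216 (r = 0.89, rho = 0.85). The 9 genes share no single pattern, so this mean does not stand for each of them. Cdh6 was at 35.1 to 38.3 CPM in wt, at 40.8 to 44.1 CPM in d9-20 and at 35.8 to 41.9 CPM in d28-30. Foxd1 was at 21.2 to 22.8 CPM in wt, at 22.3 to 26.9 CPM in d9-20 and at 23.7 to 27.4 CPM in d28-30. For single genes the closest were Spred2 for Twist1 (r = 0.96), Zfp963 for Prrx1 (0.96), Trp53 for Prrx2 (0.99), Hdac9 for Foxc1 (0.97), Gm37274 for Alx1 (0.91), Spire2 for Alx4 (0.98) and Ap3b1 for Pdgfra (0.98), each the best of 13898 over 9 libraries. For Foxc2 and Tbx1 the closest were Pknox2 and Ccnjl, without a pooled value for the reason above. Pknox2 was at 94 to 98 CPM in wt, 106 to 112 CPM in d9-20 and 96.5 to 101 CPM in d28-30.

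Other regulators of mesenchyme showed 1 call. Of 17 such genes, among them forkhead genes (Foxd1, Foxf1), Meox1, Osr1, Six2, Msx1 and T-box genes (Tbx15, Tbx18), 16 were tested. In d9-20 against wt 1 passed and was higher, Six2, with 4 unadjusted p under 0.05, 9 above 0 and a median log2 fold change of 0.08. Their summed level was 290 to 315 CPM in d9-20, 283 to 305 CPM in d28-30 and 265 to 280 CPM in wt. Both mutant ranges lay above that of wt, in d28-30 by a narrow gap (283 beside 280 CPM). Six2 is part of these sums. Six2 encodes a homeodomain factor of head mesenchyme and of kidney progenitors. It was at 15.0, 17.1 and 13.9 CPM in wt, at 22.9, 25.9 and 24.1 CPM in d9-20 and at 20.4, 20.1 and 22.9 CPM in d28-30. All mutant libraries exceeded all wt libraries. Six2 rose by 0.67 ± 0.11 in d9-20 (1.59-fold, adjusted p = 0.0404 by edgeR), and had 0.46 ± 0.11 in d28-30 (adjusted p = 0.203). The call was lost with library totals as the scale (log2 fold change 0.66, adjusted p = 0.0528), with the Y-linked covariate (0.69, adjusted p = 0.112) and without any 1 library except d28-30 replicate 2 (up to 0.268). In d28-30 against wt 0 of 16 passed by edgeR, with 13 above 0 and a median of 0.20, 3 unadjusted p under 0.05, and a call of Six2 by DESeq2 (adjusted p = 0.0282). Between the mutants 0 of 16 passed, with 3 unadjusted p under 0.05.

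Genes that neural crest cells of the pharyngeal arches use to set up their pattern (9 of 12 tested) had 0 calls in each comparison and medians of -0.20, -0.25 and 0.28. The smallest p were those of Dlx1, a homeodomain gene of arch crest and forebrain, with -0.35 ± 0.14 and -0.30 ± 0.14 against wt, and of Ednra, the endothelin receptor gene, with 0.35 ± 0.14 and 0.03 ± 0.14. Genes of cranial and pharyngeal mesoderm (8 of 10 tested) had 0 calls and medians of -0.04, 0.09 and -0.19. In this list the smallest p belonged to Msc, a bHLH gene of branchial muscle precursors, at 1.30 ± 0.158 CPM in wt, 0.781 ± 0.314 CPM in d9-20 and 0.832 ± 0.114 CPM in d28-30 (SD, n = 3), and to Fgf8, a secreted growth factor gene that the isthmus also expresses, with 0.39 ± 0.17 in d9-20 and -0.12 ± 0.17 in d28-30.

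Matrix and adhesion genes of mesenchyme (14 of 15 tested) had 0 calls in each comparison, with 3, 5 and 0 unadjusted p under 0.05 and medians of -0.02, -0.12 and -0.03. Col1a1, which encodes a chain of type I collagen, was at 58.3, 118 and 72.9 CPM in wt, at 26.5, 21.0 and 39.0 CPM in d9-20 and at 36.9, 26.9 and 34.7 CPM in d28-30. All mutant libraries lay below all wt libraries, opposite to Pdgfra. The log2 fold changes of -1.52 ± 0.27 and -1.34 ± 0.27 had adjusted p of 0.0664 and 0.128 by edgeR. Col1a2, which encodes the partner chain, had -0.63 ± 0.13 and -0.50 ± 0.13 (adjusted p = 0.117 and 0.313).

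Summed markers of other cell types also stood apart in the d9-20 libraries, where Foxc2, Tbx1 and Pdgfra were higher. All 10 neural crest genes tested had values above 0 in d9-20 against wt (median 0.26), with 0 calls and 6 unadjusted p under 0.05, and their summed level was 527 to 573 CPM beside 429 to 483 CPM in wt. Against d28-30, at 483 to 504 CPM, the d9-20 sum was higher too, with 8 of 10 genes above 0 and 6 unadjusted p under 0.05. The smallest p were those of Ngfr (0.47 ± 0.11, adjusted p = 0.194 by edgeR) and Foxd3 (0.53 ± 0.15, adjusted p = 0.398). Endothelial genes were above 0 in 9 of 10 (median 0.14), with 3 unadjusted p under 0.05, 0 calls and summed levels of 323 to 347 CPM in d9-20, 287 to 307 CPM in wt and 292 to 318 CPM in d28-30, and Kdr (0.20 ± 0.06) and Sox18 (0.34 ± 0.13) had the smallest p. Summed neuroepithelial markers were at 1038 to 1146 CPM in d9-20 and 1162 to 1300 CPM in wt, and in d28-30 at 1012 to 1215 CPM, with 7 of 12 and 4 of 12 genes above 0 in the mutants against wt. Of these, Fabp7, which encodes a fatty acid binding protein of neural progenitors, had a log2 fold change of -0.69 ± 0.22 in d9-20 (adjusted p = 0.471 by edgeR), and 0 of the 12 passed. The part of these shifts in the values of the 9 genes was not tested.

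The otic vesicle, which also expresses Tbx1, had summed markers of 66.5 to 74.0 CPM in d9-20 and 62.1 to 74.9 CPM in wt, and so overlapped. Of its 8 markers 6 were above 0 (median 0.04) with 0 calls. Oc90, which encodes an otoconial protein, was lower in all d9-20 than in all wt libraries (-1.19 ± 0.43, adjusted p = 0.623 by edgeR) while Pax2 was higher (0.38 ± 0.13, adjusted p = 0.545). Among muscle genes 4 of 7 were tested, and Des, the gene of the intermediate filament desmin, rose in d9-20, at 14.6, 14.2 and 15.9 CPM beside 5.14, 7.03 and 6.06 CPM in wt (1.30 ± 0.14, adjusted p = 0.00466 by edgeR). In d28-30 it was at 9.89, 8.37 and 10.3 CPM (0.65 ± 0.14, adjusted p = 0.158 by edgeR, 0.0152 with DESeq2 and 0.0421 without a filter). Between the mutants the difference was 0.65 ± 0.13, with an adjusted p of 0.236 by edgeR, 0.00974 with DESeq2 and 0.0218 without a filter. Erythroid genes were below 0 in 7 of 7 in both mutants (medians -0.59 and -0.21, 0 calls, 6 and 0 unadjusted p under 0.05), with Hbb-y (-0.76 ± 0.20 in d9-20) and Hbb-bh1 (-0.63 ± 0.21) in front. Macrophage genes (4 of 7 tested) summed to 1.87 to 4.32 CPM in d9-20 and 4.67 to 7.84 CPM in wt, with Csf1r at -1.10 ± 0.28 and Cx3cr1 at -0.99 ± 0.44 and 0 calls. Surface ectoderm (7 of 8 tested) was at 148 to 157 CPM in d28-30 below 164 to 234 CPM in wt, with Krt18 at -0.49 ± 0.18 and Krt8 at -0.45 ± 0.17 and 0 calls. None of the listed genes of these cell types was at 0 in every library.

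**Figure D5:**
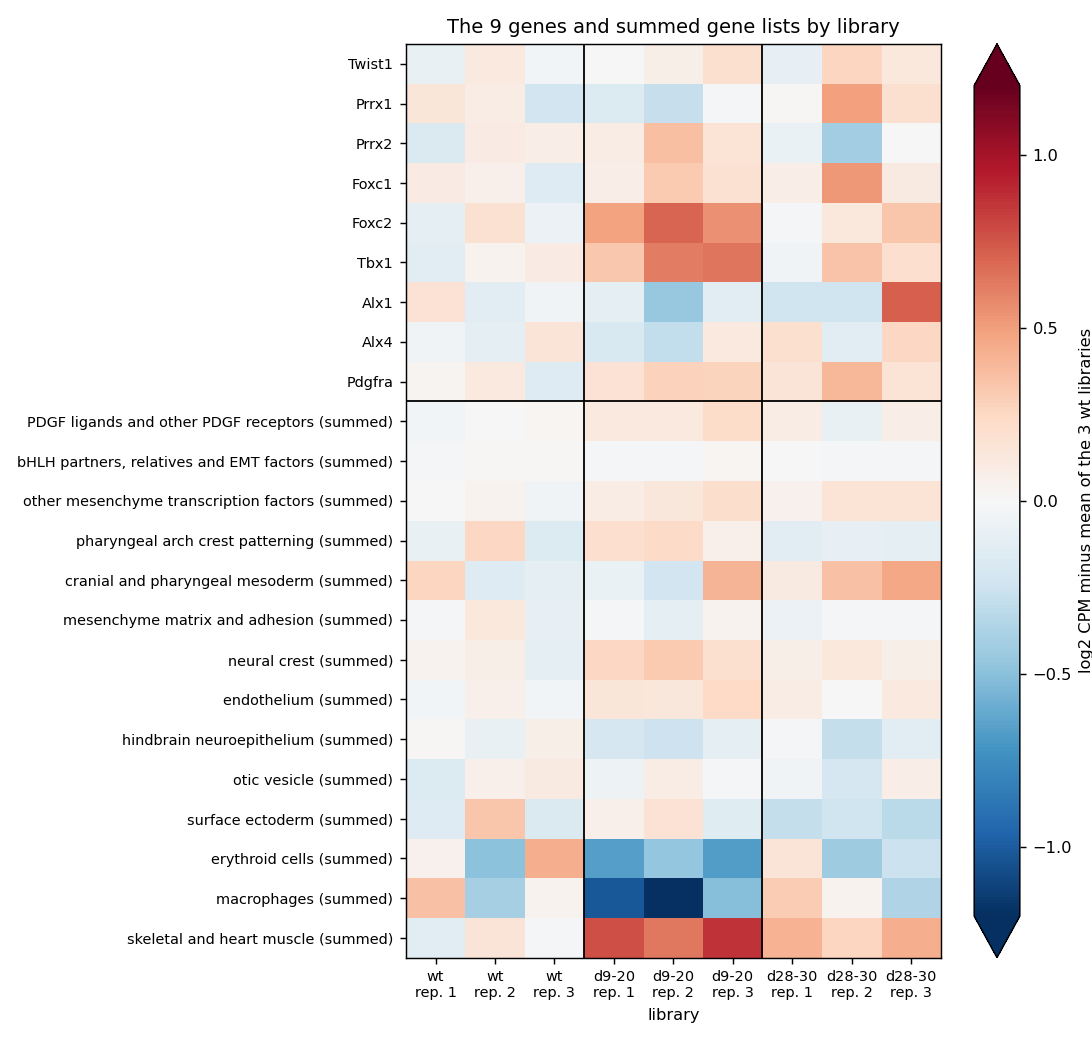
Each cell gives log2 CPM of a gene, or of the summed genes of a list, minus the mean of the 3 wt libraries, for the 9 libraries in columns. In the d9-20 columns Foxc2, Tbx1 and the neural crest and muscle sums are above the wt mean in all 3 libraries. Erythroid and macrophage sums are below it, and d28-30 replicate 2 has Prrx1 above and Prrx2 below. The muscle sum includes Des, the 1 of 4 tested muscle genes whose d9-20 libraries lay clear of wt.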

How the data were processed

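Per the labels' protocols, total RNA went into stranded TruSeq libraries that were sequenced as single reads of 75 nt. The deposited values are read counts by gene symbol, whole numbers without normalization. STAR 2.5.3a, featureCounts and limma on mm10 (GRCm38) are named in the submitters' processing notes. For the annotation, the strand setting and the handling of reads with several matches: not given in the sources used here. Columns were matched to samples by title.

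Counts were analysed with edgeR 4.0.16 in R 4.3.3: filterByExpr by genotype (15695 genes), TMM scaling and 1 quasi-likelihood fit of genotype over 9 libraries, with Benjamini-Hochberg adjustment over all genes tested and a threshold of 0.05. Standard errors are the absolute log2 fold change divided by the square root of F. CPM values are TMM-scaled. The square root of the common dispersion was 0.110. Correlations used log2(CPM + 0.5). In counts simulated for d9-20 against wt (15552 genes), the test recovered 59.0% of the genes given a 1.5-fold change and 93.0% of those given a 2-fold change, and 4.40% of its calls were false. The changed genes were drawn only from genes above a minimum expected count, so the rates do not cover scarce genes such as Alx1 and Msc. The 17 alternatives were RLE size factors, library totals, DESeq2 1.42.0, limma-voom (limma 3.58.1), no filter, only the genotypes compared, the replicate number as a block, summed Y-linked genes as a covariate, and each library left out in turn. For Six2 and Des they were added after seeing the data. Floors cover counting error only.

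The members and lists were chosen with earlier results of these data known. The text names the 9 genes, up to 4 genes of each list past the threshold or else the 2 with the smallest p against wt, the 5 genes most like the mean pattern and the 1 gene most like each. Some genes that this rule or a list holds are not reported here. The labels state no pairing of libraries. Deviations from genotype means had r = 0.133, 0.269 and 0.494 between same-numbered d9-20 and wt libraries. Between differently numbered d9-20 and wt libraries r ran from -0.388 to 0.200. For same-numbered d28-30 and wt libraries r was -0.211, 0.196 and 0.243, and between the mutants 0.095, 0.162 and 0.229. Differently numbered libraries had r of -0.381 to 0.248 and of -0.278 to 0.136 in these 2 comparisons. Whether the numbers mark pairs was not tested.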

Additional observations from a re-analysis of the deposited data

How the results depend on the processing

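Of the values of the 9 genes under 17 alternatives (459 in all), 446 kept their direction and their side of the threshold, 5 passed it (Foxc2 and Tbx1 in d9-20 against wt, with DESeq2 and without a filter, and Tbx1 with the replicate block) and 8 changed sign. Between the mutants the replicate block gave 0.00 for Pdgfra. Leaving out 1 library gave -0.0996 to 0.0606 for Twist1, -0.136 to 0.0972 for Foxc1, -0.0461 to 0.0759 for Pdgfra and -0.572 to 0.0083 for Alx1, as log2 differences of d9-20 minus d28-30. The signs changed without d9-20 replicate 1 (Twist1 0.0199, Pdgfra 0.0225), without d28-30 replicate 2 (Twist1, Foxc1, Pdgfra) and without d28-30 replicate 3 (Alx1). In d28-30 against wt Alx1 ranged from -0.243 to 0.340, negative without d28-30 replicate 3. None of these passed a test. The cause was not tested.

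The number of the 9 genes called in d9-20 against wt was 2 with DESeq2, 2 without a filter and 1 with the replicate block, and 0 when any 1 library was left out. Over all genes, 26, 25 and 0 were called in d9-20 against wt, d28-30 against wt and between the mutants. DESeq2 called 121, 95 and 79, the fit without a filter 148, 98 and 133, and the replicate block 55, 48 and 2. Only the 2 genotypes compared gave 40 and 12 against wt, and the Y-linked covariate gave 13 in d9-20. Leaving out 1 library gave 6 to 93, 10 to 33 and 0 to 4, with 93 and 33 without d28-30 replicate 2. The replicate block changed no other call of the 9 genes than that of Tbx1. The low counts of Alx1 limit what can be said of it.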
